A study of Mus musculus with 15 samples.

Results

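The genes described here are the metalloproteinases of the ADAM, ADAMTS and MMP families, the ADAMTS-like (ADAMTSL) genes and the tissue inhibitors of metalloproteinases (TIMPs). They were chosen by symbol among protein-coding genes (Adam, Adamts, Adamtsl or Mmp followed by a digit, or Timp1 to Timp4), with no use of measured values. The rule gave 86 of the 56980 genes in the table, of which 21631 are protein coding: 34 ADAM, 19 ADAMTS, 5 ADAMTSL, 24 MMP and 4 TIMP genes. Among the 24, Mmp24os1 matches by symbol only and is not a metalloproteinase.

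RNA-seq had been carried out on tibialis anterior (TA) muscle and heart of DBA/2J-mdx mice, a dystrophin-deficient strain used as a model of Duchenne muscular dystrophy. All 15 mice carried the mutation, so no healthy muscle was compared. Mice received vehicle or D+Q, that is dasatinib, a kinase inhibitor, with the flavonoid quercetin, a pair used to clear senescent cells, by oral gavage 2 times a week, from 3 to 5 months of age (2 months) in the TA mice and from 12 to 16 months of age (4 months) in the heart mice. TA held 4 D+Q mice, all labelled male, and 4 vehicle mice, 2 male and 2 female, and heart held 3 D+Q mice, 1 male and 2 female, and 4 vehicle mice, 2 male and 2 female. Tissue differed together with age and length of treatment, and these cannot be told apart in any comparison between TA and heart.

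Values are TPM, relative transcript abundances that are scaled by transcript length and to a common library total. They can be compared between genes, but keep no read depth. In bulk tissue, fewer cells of a type and less RNA per cell cannot be told apart. Skeletal muscle markers such as Acta1 and Ckm summed to 40359 to 51606 TPM in TA and 1330 to 1783 TPM in heart, and cardiac markers such as Myh6 and Tnni3 to 51.8 to 116 TPM in TA and 13880 to 18229 TPM in heart. In 1 library the sex label did not match. Heart D+Q replicate 3 is labelled male, but its Xist, the transcript of the inactive X chromosome, was at 47.2 TPM and the Y-linked Eif2s3y at 0.0279 TPM. The vehicle hearts also held more atrial transcripts than the D+Q hearts: Myl7, an atrial myosin light chain, was at 94.1, 730.1, 541 and 283 TPM in vehicle replicates 1 to 4 and at 3.99, 4.54 and 3.46 TPM in the D+Q hearts. Vehicle replicates 2 and 3, with the most Myl7, were the female vehicle hearts, with Xist at 70.4 and 63.2 TPM. Female sex and high Myl7 therefore cannot be told apart among the vehicle hearts. By Xist all 3 D+Q hearts were female, at 59.5, 53.2 and 47.2 TPM. Red-cell transcripts (4 genes) summed to 340.1 to 1216 TPM in the vehicle hearts and 26.8 to 119.8 TPM in the D+Q hearts, without overlap. The heart groups also did not overlap in fibroblast markers, at 443 to 518 TPM in the D+Q hearts and 543 to 794 TPM in the vehicle hearts. Ventricular markers, at 13356 to 14334 and 9620 to 11775 TPM, and the cardiac markers, at 17103 to 18229 and 13880 to 15254 TPM, were higher in every D+Q heart.

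ADAMs are membrane proteins, and those with an active metalloproteinase domain shed the ectodomains of growth factors, cytokines and adhesion molecules. MMPs and secreted ADAMTS proteases cut collagens, proteoglycans and other matrix proteins, whereas ADAMTSL proteins have no protease domain. TIMPs block the active site, and the balance of proteases and TIMPs is known to shape matrix turnover and scarring in damaged muscle and heart.

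A run of 10 MMP genes lies on mouse chromosome 9 (GRCm39, 7272514 to 7699587). The 150 bases before the start site are shown for the 5 of these 10 genes that reached 0.5 TPM in any library. The sequences are RefSeq promoters of build GRCm38.p6, all on the plus strand, and capitals mark TGANTCA. This spelling, which takes in the binding site of the AP-1 factors Fos and Jun, reads the same on both strands.
Mmp13 (chr9:7272364-7272513): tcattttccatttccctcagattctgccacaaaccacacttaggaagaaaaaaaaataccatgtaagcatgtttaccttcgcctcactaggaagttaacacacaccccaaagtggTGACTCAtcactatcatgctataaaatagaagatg
Mmp12 (chr9:7347224-7347373): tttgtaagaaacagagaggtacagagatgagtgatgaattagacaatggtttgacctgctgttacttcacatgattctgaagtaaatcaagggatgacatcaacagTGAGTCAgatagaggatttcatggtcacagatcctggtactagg
Mmp3 (chr9:7445672-7445821): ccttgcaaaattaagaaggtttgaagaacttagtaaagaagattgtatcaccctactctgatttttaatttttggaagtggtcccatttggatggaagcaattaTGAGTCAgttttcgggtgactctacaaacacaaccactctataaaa
Mmp8 (chr9:7558279-7558428): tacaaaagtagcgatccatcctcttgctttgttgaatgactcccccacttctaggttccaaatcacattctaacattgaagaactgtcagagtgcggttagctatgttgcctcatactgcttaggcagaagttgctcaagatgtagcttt
Mmp27 (chr9:7571246-7571395): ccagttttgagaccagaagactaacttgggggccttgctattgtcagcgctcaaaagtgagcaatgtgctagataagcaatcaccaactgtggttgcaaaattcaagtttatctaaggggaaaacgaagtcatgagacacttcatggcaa
Mmp13, a collagenase, Mmp12, the macrophage elastase, and Mmp3, a stromelysin, carry the motif at -35, -44 and -46 counted from the start site (for Mmp12, 1 of 2 start sites), and their highest values in any library were 11, 124 and 20.9 TPM. No match stood in the windows of Mmp8, the neutrophil collagenase, and Mmp27, which reached 2.02 and 0.802 TPM at most. The other 5 genes of the run, Mmp1a, Mmp1b, Mmp7, Mmp10 and Mmp20, hold the motif within 250 bases before a start site, and none went above 0.180 TPM. In all, 8 of the 10 genes of the run and 4 of the 44 other members with a promoter sequence held it within 250 bases, beside 7.82% of 27025 genes in the same table. Of all 86 members, 54 had a promoter sequence. A match is a string of letters and does not show that a factor binds.

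Of the 86 members, 55 reached 0.5 TPM in at least 1 library, 29 reached 10 TPM and 12 were listed at 0 in all 15. Most ADAMs known from testis and sperm or of unclear role were low: of 22 such genes, 3 reached 0.5 TPM (Adam1a, Adam4 and Adam32), and the rest stayed at or below 0.335 TPM. The sheddases Adam15, Adam9, Adam10 and Adam17 were measured at 10.5 TPM or more in every library. Mmp2, gelatinase A, led the proteases of TA at 116 ± 18.5 TPM (SD, n = 4) with vehicle and 104 ± 28.7 TPM (SD, n = 4) with D+Q, followed by Mmp12 at 71.7 ± 35.8 and 84.6 ± 35.2 TPM. The spread of Mmp12 within each TA group was larger than the gap between the group means. In heart, Adam15 and Mmp2 led with vehicle at 36.0 ± 1.39 and 34.0 ± 4.01 TPM (SD, n = 4), and Adam15 and Mmp15, a membrane-type MMP, led with D+Q at 42.0 ± 2.62 and 29.8 ± 3.89 TPM (SD, n = 3). Timp2 and Timp3 stood at 42.0 TPM or more in all 15 libraries.

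**Figure D1:**
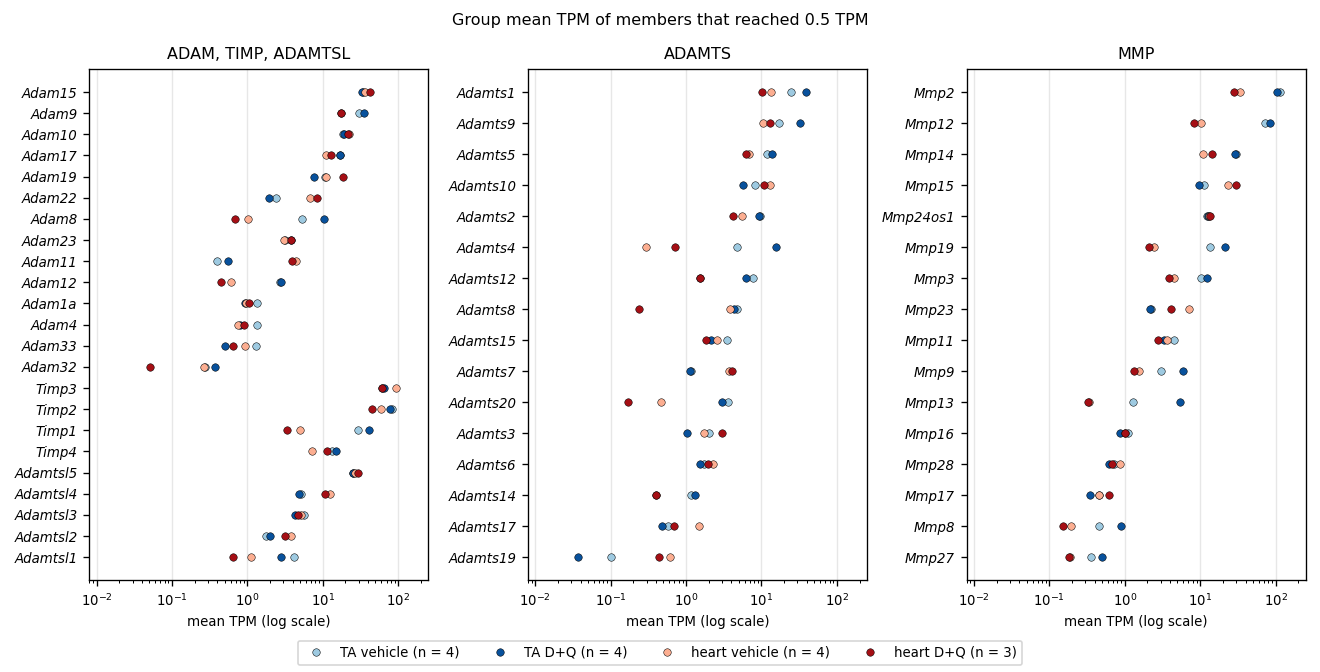
Mean TPM (log axis) in each of the 4 groups for the 55 members that reached 0.5 TPM in a library, in panels by family. Points stand for the group means of D+Q and vehicle TA and of D+Q and vehicle heart. Mmp2, Mmp12 and Timp1 lie far to the right in TA, whereas Mmp15, Adam22 and Adam11 are higher in heart.

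With vehicle, the TIMPs differed in which tissue held more of them. Timp1 was at 22.8, 18.7, 61.8 and 12.9 TPM in vehicle TA and 5.06, 7.22, 4.04 and 3.81 TPM in vehicle heart. These ranges did not overlap, and Timp1 was higher in TA by 2.20 on the log2(TPM + 0.5) scale (SE 0.672, limma adjusted p = 0.0160). Timp4 was at 8.97 to 18.4 TPM in vehicle TA and 6.59 to 8.65 TPM in vehicle heart. Timp2 was at 77.3 to 91.9 and 50.3 to 76.0 TPM. Both were higher in TA without overlap, but neither was called. Timp3, which stays bound to matrix, was at 50.7 to 72.5 TPM in vehicle TA and 74.0 to 127 TPM in vehicle heart, the reverse order (difference -0.60, SE 0.162, adjusted p = 0.00767). That order was not seen under D+Q, where the differences of all 4 TIMPs were positive. There 2 were called higher in TA and 0 higher in heart, and Timp3 was at 0.22 (SE 0.199, limma adjusted p = 0.409). The change between treatments was not called for Timp3 (difference of the D+Q effect between tissues 0.83). Its highest vehicle heart value was in replicate 2, which had the most Myl7. The summed TPM of the MMP genes (without Mmp24os1) divided by that of the TIMPs was 1.43 ± 0.137 in vehicle TA, 1.46 ± 0.397 in D+Q TA and 0.620 ± 0.0626 in vehicle heart (SD, n = 4 each), and 0.808 ± 0.109 in D+Q heart (SD, n = 3). The D+Q hearts, at 0.896, 0.841 and 0.687, and the vehicle hearts, at 0.690, 0.546, 0.648 and 0.595, overlapped in this ratio.

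To ask which members mark each tissue, vehicle TA was compared with vehicle heart and D+Q TA with D+Q heart in a limma fit of all 15 libraries with labelled sex. A gene was called at a Benjamini-Hochberg adjusted p under 0.05 over all 17868 genes tested and an absolute log2 fold change above 0.5. With vehicle, 16 of 55 members tested were called higher in TA and 11 higher in heart (29.1% and 20%), beside 22.5% and 14.2% of all genes tested. With D+Q, the counts were 18 and 8 (32.7% and 14.5%), beside 21.4% and 13.3%. In 20 genes the call was made under both treatments, always in the same direction, which is 74.1% of the vehicle calls and 76.9% of the D+Q calls, beside 78.1% and 82.6% for the 5124 genes called in both comparisons among all genes. On the TPM scale the median of all genes lay 0.16 higher in TA (log2), and with median-of-ratios scaling, which removes that shift, the members called higher in TA and in heart were 14 and 11 with vehicle and 18 and 11 with D+Q. All genes called higher in TA and in heart went from 4027 and 2532 to 2912 and 3329 with vehicle under that scaling, and from 3829 and 2372 to 2943 and 3279 with D+Q.

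Mmp2, Mmp14, Adamts12 and Adamts5 were among the members higher in TA. Mmp2 was at 98.1, 141, 116 and 107 TPM in vehicle TA and 36.1, 38.5, 29.7 and 31.7 TPM in vehicle heart, a difference of 1.74 on the log2 scale (SE 0.171, limma adjusted p = 1.42e-06). The groups lay far apart, and the D+Q groups differed by 1.95 (SE 0.210, adjusted p = 5.06e-06). Mmp14, the membrane protease that activates pro-MMP2, was at 24.5 to 38.9 TPM in vehicle TA against 9.13 to 12.0 TPM in vehicle heart (difference 1.39, SE 0.213, adjusted p = 0.000104). Adamts12, which cleaves the cartilage oligomeric matrix protein COMP, had the smallest adjusted p of all members with vehicle. It was at 6.60 to 10.4 TPM in TA and 1.41 to 1.63 TPM in heart (difference 2.00, SE 0.154, adjusted p = 1.11e-07). Adamts5, an aggrecan-cleaving protease, was higher in TA with vehicle by 0.73 (SE 0.155) and with D+Q by 0.99 (SE 0.190). Adamts20 and Adamtsl1 were higher in vehicle TA by 2.04 (SE 0.217) and 1.48 (SE 0.214), and in D+Q TA by 2.46 (SE 0.266) and 1.84 (SE 0.263).

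Adam11 and Adam22, neural ADAMs without protease activity, were at 3.32 to 5.34 TPM and 5.69 to 9.02 TPM in vehicle heart and at 0.231 to 0.653 TPM and 1.57 to 3.55 TPM in vehicle TA. Neither pair of ranges overlapped, and the TA minus heart differences were -2.45 (SE 0.240, limma adjusted p = 1.37e-06) and -1.34 (SE 0.210, adjusted p = 0.000126). Mmp15 was at 21.7 to 26.3 TPM in vehicle heart and 7.79 to 16.0 TPM in vehicle TA (difference -1.08, SE 0.179, adjusted p = 0.000201), the reverse of the membrane-type Mmp14. Adamts7, like Adamts12 a COMP-cleaving protease, was at 3.27 to 4.33 TPM in vehicle heart and 0.731 to 1.90 TPM in vehicle TA (difference -1.40, SE 0.196, adjusted p = 4.61e-05). Adamts7 and Adamts12 thus pointed in opposite directions, with the same signs under D+Q at -1.43 (SE 0.240) and 1.90 (SE 0.189). Mmp23 and Adamts10 were called higher in heart with vehicle (-1.46, adjusted p = 2.26e-05, and -0.67, adjusted p = 0.00624) but not with D+Q (-0.56, adjusted p = 0.0719, and -0.52, adjusted p = 0.0692). Adamtsl5 and Mmp24os1, both above 8 TPM in every library, were not called in any comparison.

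The question put to TA was whether 2 months of D+Q shifted these genes in young dystrophic muscle. No gene of the 16298 tested was called (0%) in the limma fit with 1 surrogate variable, and so none of the 52 members tested. At an unadjusted p under 0.05, 2 of 52 members and 2.99% of all genes were found. With the added limit of 0.5 on the log2 fold change, 0 members were higher and 2 lower with D+Q, beside 0.491% and 1.72% of all genes. The median log2 fold change of the members was -0.12, and that of all genes tested -0.07. By family, the median was -0.16 for 13 ADAM, -0.13 for 15 ADAMTS, -0.13 for 5 ADAMTSL, -0.0387 for 15 MMP and -0.10 for 4 TIMP genes. The groups did not overlap for 1 member that was lower with D+Q, Adam1a (unadjusted p = 0.111), and for 0 that were higher, beside 1.25% and 0.264% of all genes.

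The 2 members lower at an unadjusted p were Adam33 and Timp1. Adam33, a sheddase related to Adam19 and known from airway biology, was at 0.289, 0.402, 0.971 and 0.347 TPM for D+Q replicates 1 to 4 and 1.01, 2.12, 0.754 and 1.27 TPM in vehicle replicates 1 to 4. D+Q replicate 3 reached into the vehicle range, and the difference was -0.68 (SE 0.248, unadjusted p = 0.0201, limma adjusted p = 0.999). With labelled sex in place of the surrogate variable it was -0.50 (unadjusted p = 0.1427). Timp1, the inducible TIMP, was at 97.1, 11, 7.22 and 50.4 TPM under D+Q and 22.8, 18.7, 61.8 and 12.9 TPM with vehicle. The highest and the lowest TA values were both D+Q mice. Its difference was -0.59 with the surrogate variable (SE 0.189, unadjusted p = 0.00997, adjusted p = 0.999) and 0.0594 without it.

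**Figure D2:**
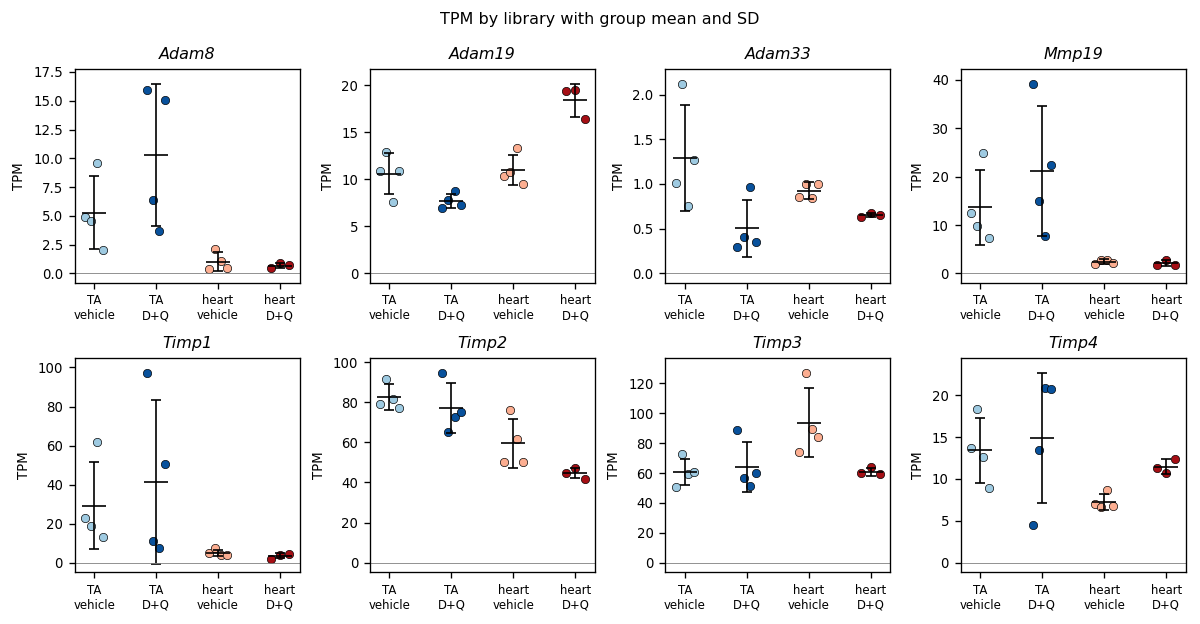
TPM (linear axis) of Adam8, Adam19, Adam33, Mmp19 and the 4 TIMPs in each library of the 4 groups, with the group mean and SD (n = 4, and n = 3 for heart D+Q). The 3 D+Q hearts sit above all 4 vehicle hearts for Adam19 and Timp4, whereas the TA groups overlap for all 8 genes.

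Adam8, a sheddase of leukocytes, was at 16.0, 6.41, 3.71 and 15.1 TPM under D+Q and 4.89, 4.57, 9.60 and 2.03 TPM with vehicle in TA. The groups overlapped, and the difference was 0.47 (SE 0.243, unadjusted p = 0.0819). Mmp19, a secreted MMP, was at 39.2, 14.9, 7.78 and 22.5 TPM under D+Q and 12.4, 9.82, 24.9 and 7.41 TPM with vehicle, with a difference of 0.14 (SE 0.152, unadjusted p = 0.388). For both genes D+Q replicates 1 and 4 were highest in their group. Adam19, which sheds neuregulin, was at 6.95, 7.80, 8.72 and 7.29 TPM under D+Q and 10.9, 12.9, 7.63 and 10.9 TPM with vehicle. Vehicle replicates 1, 2 and 4 lay above all D+Q mice and vehicle replicate 3 among them, and the difference was -0.34 (SE 0.160, unadjusted p = 0.0580, limma adjusted p = 0.999). All D+Q mice were male, whereas vehicle replicates 2 and 4 were female. With labelled sex in place of the surrogate variable, Adam8 was at 0.33, Mmp19 at 0.0304 and Adam19 at -0.24 (limma unadjusted p = 0.5703, 0.9559 and 0.2636). The other TIMPs overlapped between groups, at differences of -0.17 (SE 0.125) for Timp2, -0.04 (SE 0.157) for Timp3 and 0.20 (SE 0.357) for Timp4. Timp3 changed sign with median-of-ratios scaling, at 0.0283.

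Some members varied more between TA mice than between the groups. D+Q replicates 1 and 4 and vehicle replicate 3 were picked because they had the highest surrogate variables, 0.703, 0.228 and 0.295. That variable was estimated from the same TA values, members included. The 3 were the highest TA libraries for 7 of 52 members (13.5%), beside 6.39% of all genes tested. These members were Timp1, Adamts4, Mmp19, Adam8, Mmp3, Mmp8 and Adam9. Adamts4, an aggrecan- and versican-cleaving protease, was at 53.1, 6.64 and 14.8 TPM in those 3 and at 0.596 to 1.87 TPM in the other 5. In D+Q replicate 1 its relatives Adamts1 and Adamts9 were also highest, at 89.2 and 88.0 TPM, against at most 44.2 and 26.6 TPM in any other TA library. Neutrophil markers (6 genes) summed to 29.7, 27.4 and 25.9 TPM in the 3 libraries, to 24.7 TPM in vehicle replicate 2 and to 4.71 to 7.52 TPM in the other 4. Their part in these values was not tested. Thbs1, a matrix glycoprotein, was also highest in the 3, at 277, 39.1 and 94.2 TPM.

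**Figure D3:**
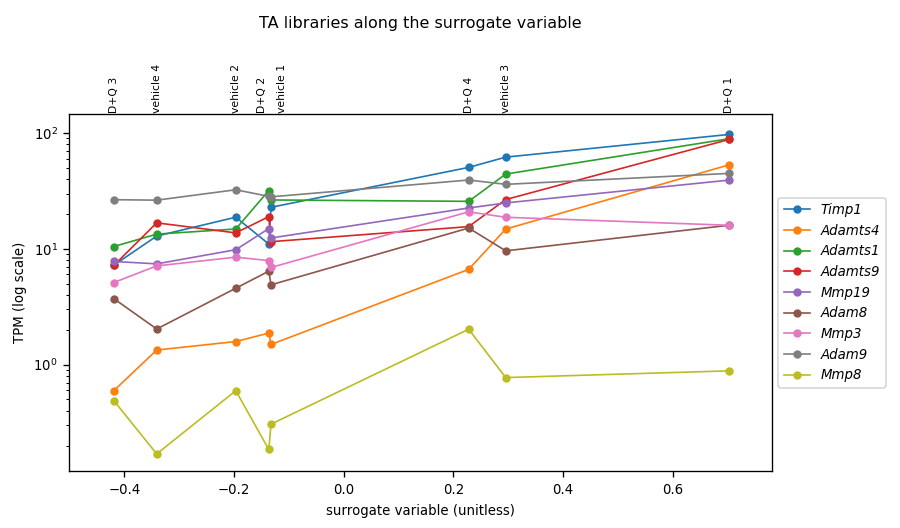
TPM (log axis) of 9 members in the 8 TA libraries, each placed by its surrogate variable (unitless). D+Q replicate 4, vehicle replicate 3 and D+Q replicate 1 lie to the right and carry the highest Timp1, Adamts4, Mmp19, Adam8, Mmp3, Mmp8 and Adam9. These libraries were picked by that variable, which was estimated from the same TA values.

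The question put to heart was whether 4 months of D+Q late in the disease shifted the same genes. In the limma fit with labelled sex, 51 of 16132 genes were called (0.316%), and among 49 members tested 1, Adam19, rose. At an unadjusted p under 0.05, 7 members were higher and 13 lower with D+Q, which is 20 of 49, beside 17.6% of all genes. With the limit of 0.5 on the log2 fold change, 4 were higher and 6 lower (8.16% and 12.2%), beside 1.3% and 3.79% of all genes. The groups did not overlap for 7 members higher and 7 lower with D+Q (14.3% each), beside 9.63% and 5.57%. These counts include Adamts4 and Adamts8, which passed the filter on low values through 1 group alone. Among the 47 members with at least 1 library at the limit in each group, 3 were higher and 5 lower past the unadjusted limits (6.38% and 10.6%), beside 1.23% and 3.26% of 15960 such genes, and 6 were higher and 6 lower without overlap (12.8% each), beside 9.61% and 4.98%. The median log2 fold change of the members was -0.20 and that of all genes tested -0.00248. Differences were positive for 7 of 13 ADAM genes (median 0.0798), 4 of 14 ADAMTS (-0.23), 1 of 5 ADAMTSL (-0.25), 4 of 13 MMP (-0.23) and 1 of 4 TIMP genes (-0.49). Atrial, red-cell, fibroblast, ventricular and cardiac markers moved with the group in heart, as given above, and those of fibroblasts and ventricle were not tested for their part in these differences.

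Adam19 was at 19.4, 19.4 and 16.4 TPM in the D+Q hearts and 10.3, 10.8, 13.3 and 9.53 TPM in the vehicle hearts. All D+Q values lay above all vehicle values, and Adam19 was 1.60-fold higher (log2 difference 0.68, SE 0.0886, limma adjusted p = 0.0374). It was the one called gene among the 13 ADAMs tested, and the call was kept in 4 of 19 other settings. The difference was positive in all 19, at adjusted p from 0.03235 to 0.9998, the highest with a red-cell score in place of labelled sex. The call was lost with sex read from Xist in place of the label, at 0.60 (adjusted p = 0.1513). Leaving out any 1 heart library except vehicle replicate 3 lost the call, at adjusted p from 0.0829 to 0.2066. Without vehicle replicates 2 and 3, the hearts with most Myl7 and the only female vehicle hearts, the difference was 0.69. With labelled sex in that fit, it rested on D+Q replicate 3, female by Xist, against vehicle replicates 1 and 4. RefSeq lists 3 start sites for this gene. The 150 bases before the one that holds TGANTCA are shown (GRCm38.p6, plus strand, motif in capitals). The others held no match within 250 bases.
Adam19 (chr11:46055834-46055983): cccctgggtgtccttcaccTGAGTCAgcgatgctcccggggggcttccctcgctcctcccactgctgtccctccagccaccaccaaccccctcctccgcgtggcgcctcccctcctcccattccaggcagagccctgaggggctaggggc
The motif lies at -131, farther from the start site than in Mmp13, Mmp12 and Mmp3. Outside the MMP run, 4 of 44 members with a promoter sequence held it, beside 7.82% of genes.

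Other ADAMs of heart did not pass the test. Adam33 was at 0.630, 0.674 and 0.653 TPM under D+Q and 0.849, 1.00, 0.847 and 1.00 TPM with vehicle, without overlap and in the opposite direction to Adam19 (difference -0.31, SE 0.141, unadjusted p = 0.0656). Adam12, also related to Adam19, was at 0.318 to 0.570 TPM under D+Q and 0.445 to 0.966 TPM with vehicle. Adam15, the most abundant ADAM of heart, was at 39.1 to 44.1 TPM under D+Q and 34.8 to 37.3 TPM with vehicle (difference 0.20, SE 0.0514, unadjusted p = 0.00562, limma adjusted p = 0.128). Adam8 was at 0.418 to 2.14 TPM over all hearts, with a difference of -0.34 (SE 0.318), and that of Mmp19 was -0.26 (SE 0.157). With a score of the 5 atrial markers in place of labelled sex they were 1.67 and 0.80 (limma unadjusted p = 0.1907 and 0.2475). That score did not overlap between the heart groups, so the fit can hardly tell it apart from D+Q.

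Among the inhibitors in heart, Timp4 and the pair Timp2 and Timp3 pointed in opposite directions. Timp1 overlapped between the groups, at 1.89 to 4.22 TPM under D+Q and 3.81 to 7.22 TPM with vehicle (difference -0.53). Timp4 is known as the cardiac TIMP, though with vehicle it was higher in TA than in heart. In heart it was at 11.3, 10.7 and 12.4 TPM under D+Q and 7.04, 6.59, 8.65 and 6.75 TPM with vehicle. Those groups did not overlap, and the difference was 0.63 (SE 0.116, unadjusted p = 0.000875, limma adjusted p = 0.0934). Timp4 was called in 1 of 19 other settings, the one without vehicle replicate 3 (0.75, adjusted p = 0.03692). Over the 19 settings its adjusted p went up to 0.9998. Timp3 was at 59.7, 64.1 and 59.2 TPM under D+Q and 74.0, 127, 89.7 and 84.1 TPM with vehicle (difference -0.63, SE 0.137, unadjusted p = 0.00220, adjusted p = 0.104). Timp2 was at 44.7, 47.1 and 42.0 TPM under D+Q and 50.3, 76.0, 61.7 and 50.4 TPM with vehicle (difference -0.45, SE 0.0972, unadjusted p = 0.00227, adjusted p = 0.105). Both lay below vehicle in every D+Q heart. In both the vehicle hearts were ordered as by Myl7, replicates 2, 3, 4 and 1 from the highest. Replicates 2 and 3 were also the female vehicle hearts. With the atrial score in place of labelled sex, Timp3 was at 0.31 and Timp2 at 0.39 (limma unadjusted p = 0.5392 and 0.3889). Timp4 was at 0.85 in that fit (unadjusted p = 0.07659). The score did not overlap between the heart groups, so the fit can hardly tell it apart from D+Q, and the turned signs decide nothing. In all, 11 of 49 members (22.4%) had the vehicle order of Myl7, beside 11.4% of all genes tested.

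**Figure D4:**
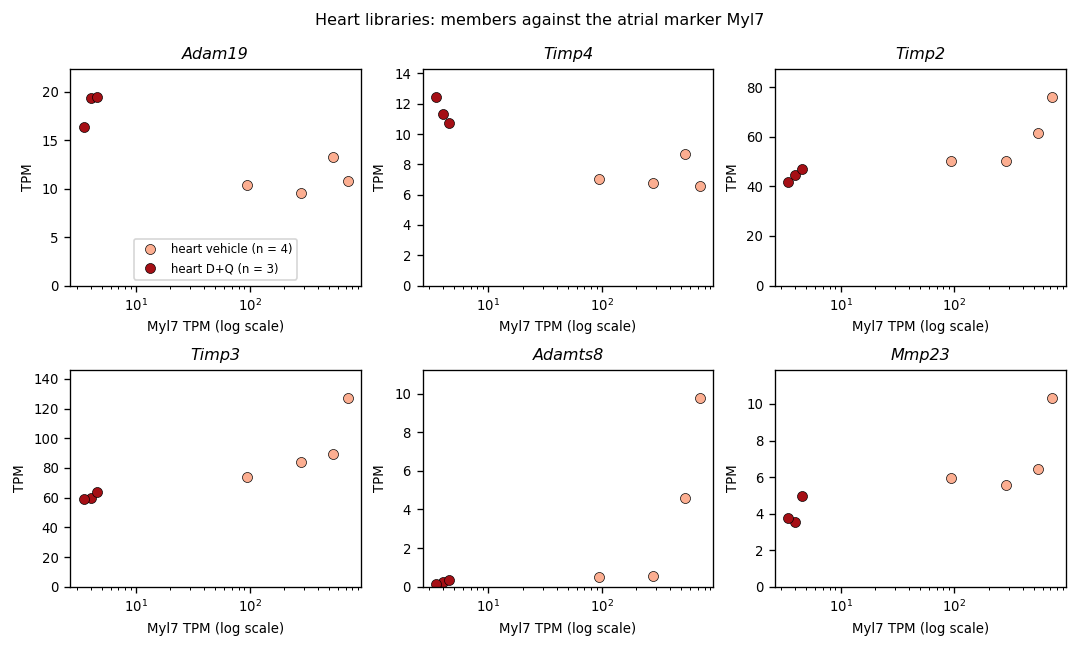
TPM (linear axis) of 6 members in the 7 heart libraries against the TPM of the atrial marker Myl7 (log axis), for D+Q and vehicle hearts. The D+Q hearts lie at 3.46 to 4.54 TPM of Myl7 and the vehicle hearts at 94.1 to 730.1 TPM. Adamts8, Timp2, Timp3 and Mmp23 have their highest values in the 2 vehicle hearts with the most Myl7, which are also the female ones.

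Adamts8 is given as a description, since it passed the filter on low values through the vehicle hearts alone and so had to differ. It was at 0.255, 0.331 and 0.133 TPM under D+Q and 0.491, 9.76, 4.59 and 0.575 TPM with vehicle. Vehicle replicates 2 and 3 were high, which also had the most Myl7 and were the female vehicle hearts. Its difference was -2.20 (SE 0.514), against 3.33 with the atrial score in place of labelled sex (limma unadjusted p = 0.1447). With sex read from Xist in place of the label it was -3.30. Mmp23 was at 3.54, 4.96 and 3.74 TPM under D+Q and 5.95, 10.3, 6.43 and 5.54 TPM with vehicle (difference -0.75, SE 0.187, unadjusted p = 0.00471, limma adjusted p = 0.122). It lay lower in all D+Q hearts, with its 2 highest values in vehicle replicates 2 and 3. With the atrial score in place of labelled sex it was at -0.0477 (limma unadjusted p = 0.9501). Adamts17 was at 0.415 to 0.899 TPM under D+Q and 1.21 to 1.85 TPM with vehicle (difference -0.71, SE 0.184, unadjusted p = 0.00609).

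Members that were higher with D+Q but not called included proteases of the cell surface and of procollagen. Adamts3, which removes the N-propeptide of procollagens, was at 3.48, 2.39 and 2.99 TPM under D+Q and 1.5, 1.76, 2.19 and 1.55 TPM with vehicle (difference 0.59, SE 0.161, unadjusted p = 0.00735, limma adjusted p = 0.137). Its relative Adamts2 pointed the other way, at 3.85 to 4.58 TPM under D+Q and 4.51 to 7.25 TPM with vehicle (difference -0.37, SE 0.146, unadjusted p = 0.0385). The membrane-type Mmp14 was at 12.4 to 15.2 TPM under D+Q and 9.13 to 12.0 TPM with vehicle (difference 0.33, SE 0.102, unadjusted p = 0.0131), and Mmp15 at 26.4 to 34.1 and 21.7 to 26.3 TPM (difference 0.31, SE 0.102, unadjusted p = 0.0186). Both were without overlap. Mmp2 pointed the other way, at 24.1 to 30.5 TPM under D+Q and 29.7 to 38.5 TPM with vehicle (difference -0.30, SE 0.114, unadjusted p = 0.0339). Adamts4 reached at most 0.872 TPM in any heart and passed the filter through the D+Q hearts alone.

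Mmp12 and Mmp3 in heart did not overlap between the labelled sexes, and how many other genes split in this way was not counted. Mmp12 was at 14.5, 17.2, 9.15 and 14.4 TPM in the 4 hearts labelled female and 5.62, 3.87 and 1.13 TPM in the 3 labelled male, including D+Q replicate 3 with its female transcripts. Mmp3 was at 4.22 to 6.69 TPM in the hearts labelled female and 2.17 to 2.81 TPM in those labelled male. With sex read from Xist the sexes overlapped for both genes, as D+Q replicate 3, then female, had the lowest value of all hearts. With labelled sex in the fit, the D+Q differences were -0.93 (SE 0.289, unadjusted p = 0.0141) and -0.34 (SE 0.111, unadjusted p = 0.0167), and with sex read from Xist they were -1.40 (unadjusted p = 0.1274) and -0.70 (unadjusted p = 0.04642). With no covariate, limma gave -0.57 (unadjusted p = 0.4679) and -0.17 (unadjusted p = 0.6333). Macrophage markers (6 genes) summed to 146 to 247 TPM in the hearts labelled female and 121 to 158 TPM in those labelled male, and their part was not tested.

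**Figure D5:**
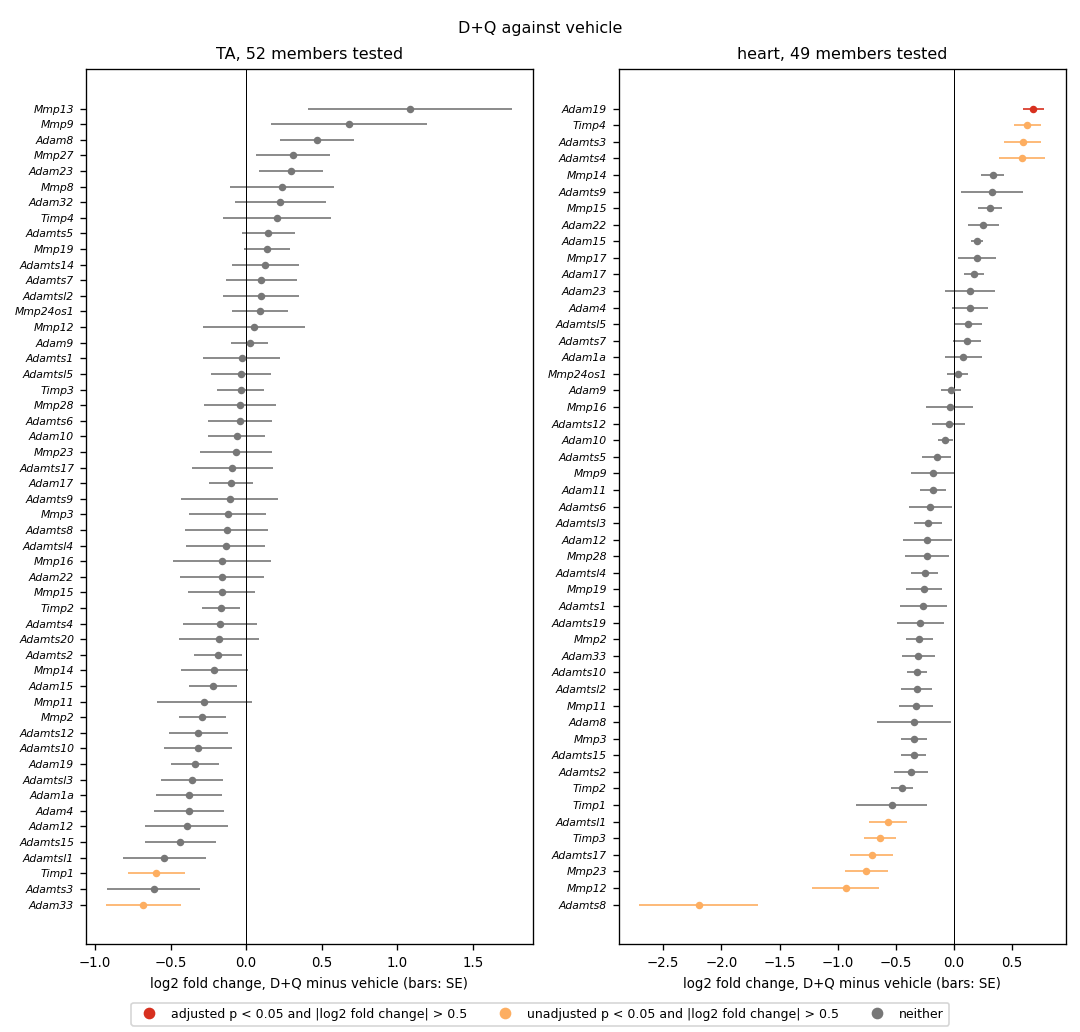
Log2 fold change of D+Q minus vehicle on the log2(TPM + 0.5) scale, with SE bars, for the 52 members tested in TA and the 49 tested in heart. Red marks an adjusted p under 0.05 with an absolute log2 fold change above 0.5, orange the same limits with the unadjusted p, and grey neither. Adam19 in heart is the single red point. Adamts8, farthest to the left in heart, and Adamts4 in heart passed the filter on low values through 1 group alone.

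The effect of D+Q was then compared between tissues by the interaction term of the 15-library fit, which held labelled sex and no surrogate variable. Among 55 members 0 were called by limma, beside 0.0616% of all 17868 genes, and 7 had an unadjusted p under 0.05. With the limit on the fold change this left 6 members (10.9%), beside 3.6% of all genes. Adam19 had the smallest p of the members, with an effect in TA below that in heart (difference of differences -0.95, SE 0.194, unadjusted p = 0.000252, limma adjusted p = 0.195). The sign was the same in 23 of 23 other settings. Sex read from Xist and the atrial and red-cell scores were not among those settings. The TA effect lay above the heart effect for Adamts8 (2.65, SE 0.732), whose TA libraries all passed the filter, Timp3 (0.83, SE 0.257) and Mmp23 (0.90, SE 0.299), and below it for Adamts3 (-0.94, SE 0.332), at unadjusted p from 0.00289 to 0.0135. Adam8 and Mmp19 gave 1.1 (SE 0.785) and 0.63 (SE 0.665), with unadjusted p of 0.183 and 0.361.

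Genes that act with these families were followed as a list of 43, covering activators such as Furin and Plau, the inhibitor Reck, tetraspanins that escort Adam10, and substrates. In TA, 0 of 34 tested were called and 1, the scavenger receptor Lrp1, had an unadjusted p under 0.05 (limma difference -0.28, SE 0.126). In heart, 0 of 35 were called, and 2 were higher and 14 lower at an unadjusted p under 0.05, beside 17.6% of all genes. The higher ones were Furin, which activates pro-ADAMs and membrane-type MMPs, and Bsg, an inducer of MMPs, at 0.37 (SE 0.138) and 0.24 (SE 0.0791). The lower ones included the matrix proteins Fn1, Thbs1, Thbs2, Comp, Spp1 and Vcan, the receptor Lrp1, the inhibitor Reck, the procollagen C-proteinase Bmp1 and its enhancer Pcolce, and Tspan17 and Tspan5. Fibroblast markers were also lower in every D+Q heart, at the sums given above, and their part was not tested. Fn1, the matrix protein fibronectin, was at 14.5 to 23.1 TPM under D+Q and 19.4 to 42.5 TPM with vehicle (difference -0.68, SE 0.158, adjusted p = 0.112). Between vehicle tissues, 16 of 36 of the list were called higher in TA and 5 higher in heart (44.4% and 13.9%), beside 22.5% and 14.2% of all genes tested, among the first Plau, a plasminogen activator, at 12.3 to 29.9 TPM in TA and 2.05 to 2.97 TPM in heart.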

How the data were processed

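RNA-seq libraries of 15 mice were analysed from 1 gene table. The authors had trimmed reads with Trim Galore 0.6.10, quantified transcripts against GRCm39 with Salmon 1.10.3 and summarised them to genes with tximport, and deposited TPM values per library. TPM keeps no read depth, so no depth or counting error can be given, and the count test of the study's methods was not run.

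Here log2(TPM + 0.5) was fitted with limma 3.58.1 (R 4.3.3, empirical Bayes with trend) over genes at 0.5 TPM or more in at least 3 libraries. TA held 1 surrogate variable, from an iteratively re-weighted procedure of 5 rounds written for these values, and heart held labelled sex. The fit of all 15 libraries held 4 group means and labelled sex. A fold change on this scale understates the change of low genes. A gene was called when its Benjamini-Hochberg adjusted p was under 0.05 and its log2 fold change exceeded 0.5 in size, and intervals of limma are at 95%. Each library is 1 mouse. The p-values rest on the spread between mice that was left after the covariates, moderated by limma over genes. For Timp1 in TA, the SE was 0.189 with the surrogate variable and 0.767 without it. The fitting code was tested on simulated data. Groups came from the labels. Alternatives were other pseudocounts, filters, scalings, covariates and left-out libraries.

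Named in full were Adam8, Adam19, Adam33, Mmp19, the TIMPs, the 5 most abundant members of ADAM, of ADAMTS with ADAMTSL, and of MMP, and up to 5 members a direction with the smallest p in each comparison. Adam1a, Adam12, Adamts2, Adamts4, Mmp3, Mmp8, Mmp9, Mmp13 and Mmp27 were named after their values were seen. The members and lists were chosen with earlier results of these data known. Gene types came from GENCODE M39, which held 56236 of the 56980 identifiers. Results for 1 gene of the list of 43 are not reported here.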

Additional observations from a re-analysis of the deposited data

Results flagged for a closer look

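In groups of 4 libraries, 1 value stood far from the other 3 by Dixon's ratio in 11 of 104 groups tested over 35 genes. The limit used is meant to flag about 1 in 20 groups, or 5.2, by chance. The count cannot be set against that rate, since Adamts4, Mmp3 and Mmp8 were named after their values were seen. In TA with D+Q, replicate 1 had Adamts9 at 88.0 TPM (next 18.9) and Adamts4 at 53.1 TPM (next 6.64), replicate 3 had Adam33 at 0.971 TPM (next 0.402), and replicate 4 had Adamts20 at 4.17 TPM (next 2.62) and Adam11 at 1.34 TPM (next 0.388). In TA with vehicle, replicate 2 had Adam10 at 24.1 TPM (next 17.6) and Adamts12 at 10.4 TPM (next 6.98), and replicate 3 had Adamts4 at 14.8 TPM (next 1.58) and Mmp3 at 18.7 TPM (next 8.47). In heart with vehicle, replicate 2, which had the most Myl7, had Adamts5 at 8.56 TPM (next 6.40) and Mmp8 at 0.599 TPM (next 0.0876). Heart D+Q held 3 libraries and was not examined in this way.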

How the results depend on the processing

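Replicate numbers named different mice and were not treated as pairs. After each gene's group mean was taken off, same-numbered libraries correlated at -0.12 on average in TA and 0.00349 in heart. Libraries of other numbers correlated at 0.0410 and -0.00116. With a replicate block, heart members called went from 1 to 0, heart genes called from 51 to 4 and interaction calls from 11 to 5, and in TA Timp1 was 0.0594, Timp3 0.0547 and Timp4 -0.0136. The cause of the changes below was not tested. In TA, members past the unadjusted limits (2) were 1 with pseudocount 1, 1 with no covariate, 0 with labelled sex and 0 with males only, and 0 to 4 when 1 library was left out (0 without D+Q 2, 4 without vehicle 1 or 3), with 0 to 2 genes called. Against the main signs, Timp1 was 0.0594 with no covariate, Timp3 was 0.0283 with median-of-ratios scaling, 0.0547 with no covariate and 0.19 with labelled sex or males only, and Timp4 was -0.0136 with no covariate and -0.0275 with labelled sex or males only. Leaving out 1 library gave -0.13 to 0.14 for Timp3 and -0.32 to 0.46 for Timp4, turned by D+Q 3 and vehicle 2 (0.0669) for Timp3 and by D+Q 3, D+Q 4 (-0.0355) and vehicle 4 (-0.0178) for Timp4.

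In heart, members called were 0 with no filter, median-of-ratios scaling, no trend, no covariate, the atrial score, vehicle 2 and 3 left out, or the red-cell score (the last 2 settings chosen after seeing the data). With sex from expression 1 member was called, Adamts8 at -3.30, which passed the filter through the vehicle hearts alone, and Adam19 was not (0.60, adjusted p = 0.1513). Genes called were 0 with no filter, the atrial score, vehicle 2 and 3 left out and the red-cell score, 13 with no trend and 25 with sex from expression. Members past the unadjusted limits (10) were 3, 5 and 4 with the atrial score, vehicle 2 and 3 left out and the red-cell score. Leaving out 1 heart library gave 0 to 2 members and 0 to 136 genes called, 0 without vehicle 2 and 136 without vehicle 3. With the atrial score, Adam8 was 1.67, Mmp19 0.80, Timp2 0.39, Timp3 0.31, Adamts8 3.33, Mmp12 3.14 and Mmp3 2.17 (limma unadjusted p from 0.06176 to 0.5392). With the red-cell score, Adam8 was 0.98, Mmp19 0.0672, Timp1 0.91 and Mmp23 0.10 (unadjusted p from 0.01015 to 0.8833). Each score took the place of labelled sex and did not overlap between the heart groups, so these fits can hardly tell it apart from D+Q. Leaving out vehicle 2 and 3 removed the female vehicle hearts. With labelled sex, the D+Q difference then rested on D+Q 3 against vehicle 1 and 4. Interaction calls over all genes were 6 with no filter and 5 to 14 with 1 library left out, and the Timp1 interaction ranged from -0.37 to 0.89, at -0.37, -0.0584 and -0.17 without TA D+Q 1, TA D+Q 4 and heart vehicle 2. Of the alternatives for single genes, 956 kept direction and side of the threshold, 30 reversed, 15 lost a call and 2 gained one.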

Other observations

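The 2 most positive TA differences belonged to Mmp13, a collagenase, and Mmp9, gelatinase B, which were picked after their values were seen. The limma differences were 1.09 (SE 0.676, unadjusted p = 0.138) and 0.68 (SE 0.516, unadjusted p = 0.216). Mmp13 stood at 8.56, 11, 1.24 and 0.785 TPM under D+Q and 2.45, 1.12, 0.872 and 0.645 TPM under vehicle, with high values in D+Q replicates 1 and 2. Mmp9 stood at 2.64, 4.41, 3.57 and 12.8 TPM under D+Q and 3.00, 2.42, 5.95 and 0.838 TPM under vehicle, and the groups overlapped.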
